A study of Canis lupus familiaris with 21 samples.

Results

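Repeat families of uncertain or very old origin were followed in RNA of companion dogs. A repeat family is a set of related sequences scattered over a genome, and each row of the deposited tables pools the reads of all copies of a family. The families described here are those whose class in the tables is none of LINE, SINE, LTR, DNA or Satellite. They numbered 87 of 822 repeat families, beside 34981 genes. Levels are normalised counts, reads scaled so that all libraries of a tissue have the same total. A mean of at least 10 over the libraries of a tissue was reached by 82 of the 87 in plasma extracellular vesicles (EVs, membrane-bound particles released by cells) and by 39 in prefrontal cortex. All 39 were also among the 82, 43 reached the mean in EVs alone, and Eulor5B, Eulor6B, Eulor6C, UCON58 and UCON92 reached it in neither tissue. The classes were Unknown for 50 families, DNA? for 23, LTR? for 8, RC for 4, RC? for 1 and Unspecified for 1, where RC stands for rolling circle and a question mark is the convention of repeat annotation for a tentative class.

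RNA was sequenced from dogs with canine cognitive dysfunction (CCD, a dementia-like condition of ageing dogs), from old dogs and from young dogs. Prefrontal cortex gave 3 libraries per group, made from polyadenylated RNA, and plasma EVs gave 4 libraries per group, made from total RNA depleted of ribosomal RNA. The labels give a condition and a tissue for each library, and no breed, sex, age, treatment or batch was used here. Whether a library number stands for a dog of its own is not stated, so p-values here describe the spread between these libraries. Bulk RNA cannot tell fewer cells of a type from less RNA per cell.

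Most of these families are thought to be remains of transposable elements that stopped moving long ago. UCON families were recognised among ultraconserved elements, Eulor families are rare repeats shared by bony vertebrates, MamRep families are found across mammals, EUTREP and Eutr families across placental mammals, and MER stands for medium reiterated repeat. Helitrons are DNA transposons that copy by a rolling circle. Copies of several such families are known from human and other vertebrate genomes to have been kept as regulatory elements or as parts of genes, while other copies are silent remnants. A row of the tables does not say which copy gave its reads, and the reads of a family can come from copies inside introns or untranslated ends of expressed genes.

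The libraries held 14923391 to 18876635 reads in CCD cortex, 24167737 to 27548199 in old cortex and 22251323 to 31363933 in young cortex, so CCD cortex was the shallowest group. EV libraries held 27512140 to 44952893 reads. In cortex all 5 neuronal markers (SYT1, SNAP25, SLC17A7, GAD1 and RBFOX3) were found, none at 0, and their summed normalised count was 92883 to 145044. In EVs all 5 vesicle markers (CD9, CD63, CD81, TSG101 and PDCD6IP) had reads in every library, with a summed count of 295 to 386 in CCD EVs, 465 to 875 in old EVs and 432 to 470 in young EVs. The vesicle marker sums of CCD EVs did not overlap those of the other groups. The 5 markers of meninges and fibroblasts (COL1A1, COL1A2, DCN, LUM and COL3A1) summed to 15069 in CCD cortex_358, 33048 in young cortex_353 and 19793 in young cortex_377, against 256 to 1218 in the other 6 cortex libraries. In EVs the same markers, none at 0, summed to 4166 in CCD EV_523, against 1289 to 1718 in the other 11 libraries. Calls in cortex are therefore also given without those 3 libraries.

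The families took a small share of the reads in both tissues. In EVs they held 0.206% ± 0.0231 of all reads in CCD, 0.231% ± 0.0222 in old and 0.214% ± 0.0272 in young libraries (SD, n = 4 each). In cortex the shares were 0.0198% ± 0.00336 in CCD, 0.0168% ± 0.00156 in old and 0.0161% ± 0.00164 in young libraries (SD, n = 3 each). The groups overlapped in both tissues. The depth behind these shares was 57592 to 107715 reads per EV library and 2806 to 5003 reads per cortex library. The highest cortex share, 0.0236% in CCD cortex_163, had a Wilson 95% interval of 0.0229% to 0.0243%, and the lowest, 0.0149% in young cortex_377, had one of 0.0145% to 0.0153%. Intervals cover counting error only.

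Repeats as a whole made up 74.9% to 84.2% of EV reads and 4.19% to 7.91% of cortex reads, so the families were also set against repeat reads alone. In cortex they held 0.298% ± 0.0104 of repeat reads in CCD, 0.350% ± 0.0176 in old and 0.324% ± 0.0448 in young libraries. The CCD libraries, at 0.288% to 0.308%, all lay below the old libraries, at 0.330% to 0.362%, while the young libraries reached from 0.273% to 0.356%. In EVs the share of repeat reads was 0.258% ± 0.0182 in CCD, 0.289% ± 0.0198 in old and 0.271% ± 0.0208 in young libraries, and the groups overlapped. The share of all reads held by repeats was 5.53% to 7.91% in CCD cortex and 4.44% to 5.18% in old cortex, which did not overlap either.

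**Figure D1:**
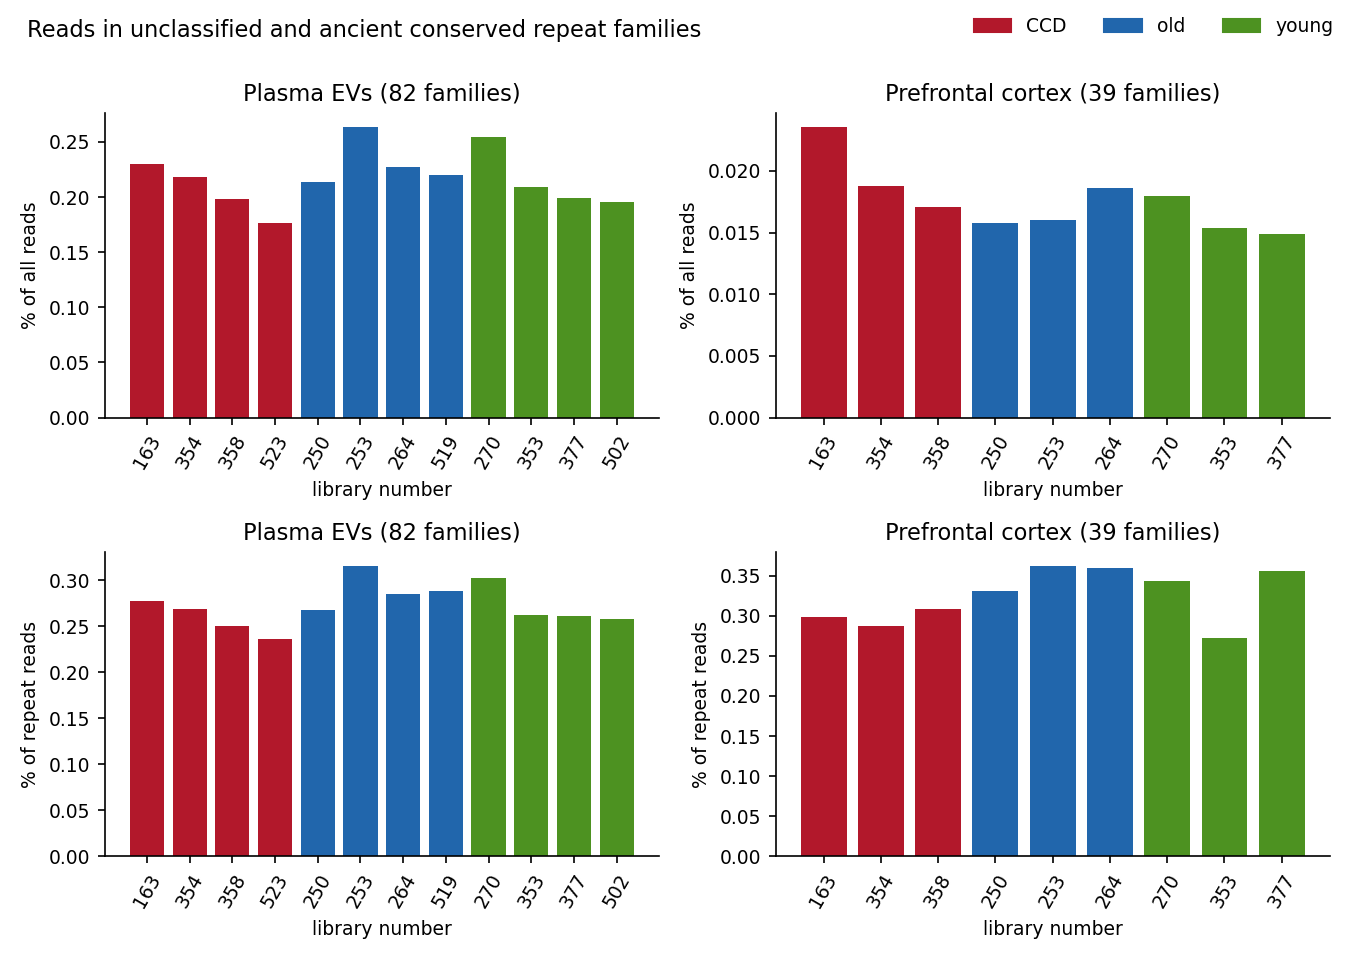
Reads in the 82 families of EVs and the 39 families of cortex, as a percentage of all reads (top) and of repeat reads (bottom), with a bar for each library. The EV shares of all reads lie between 0.177% and 0.263% and the cortex shares between 0.0149% and 0.0236%, and the CCD cortex bars of the lower panel lie between 0.288% and 0.308%, all below the old bars.

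Reads were spread unevenly over the families. The 4 MamRep families led as a group: together with the MARE families, which reached the mean of 10 in EVs alone, they held 40.8% of the families' normalised counts in EVs and 30.3% in cortex. Among single families, MamRep605 and MamRep605b (both LTR?) were at ranks 1 and 2 in EVs. In cortex they were at ranks 1 and 3, with EUTREP2 between them. MamRep605 averaged 16635 normalised counts over the 12 EV libraries and 662 over the 9 cortex libraries, the highest of these families in each tissue. The 51 UCON families of EVs held 23.6% and the 18 of cortex 21.4%, so UCON had most of the names but held fewer counts than the MamRep and MARE families. UCON99, of class RC, passed in EVs and is counted with the Helitrons throughout. EUTREP and Eutr families, led by EUTREP2 (DNA?, listed in the hAT family), held 15.7% in EVs and 20.7% in cortex. Helitrons, led by Helitron3Na_Mam, held 10.4% in EVs and 9.44% in cortex. MER families, led by MER131, held 7.84% in EVs and 14.4% in cortex. With MARE pooled with MamRep, Eulor families held the smallest share of these groups, at 1.67% in EVs and 3.82% in cortex. The MARE families by themselves were scarcer in EVs, where MARE9 averaged 76.1 and MARE11 54.9 normalised counts. These levels are per family, not per copy or per length, since the number of copies in the genome was not used here.

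The families nearest the limit of 10 in cortex were UCON5 with 9.23 and MER123 with 9.38 normalised counts below it, and UCON64 with 11.6 and UCON20 with 11.9 above it. In EVs they were UCON58 with 3.80 and UCON92 with 7.99 below it, and Eulor5A with 13.1 and Eulor7 with 17.5 above it. The limit acts on the mean of all libraries of a tissue, so a scarce family can pass through a single group. There were 3 such families in cortex, whose mean over the other groups was under 10, and 0 in EVs. Eulor10 averaged 24.9 in CCD, 10.5 in old and 2.04 in young cortex, UCON20 averaged 21.7, 6.10 and 7.98 in the same order, and UCON66, which passed through the old libraries, 8.97, 21.6 and 9.67. The limit favours a difference in these 3, so their fold changes are given as descriptions only.

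Families abundant in EVs were mostly also abundant in cortex, with clear exceptions. Over the 39 families Spearman's rho between the mean shares of repeat reads was 0.64, a description across families that all share the same libraries. Over the same 39, the EV share divided by the cortex share had a median of 0.769. It ran from 0.0719 for UCON14 to 3.55 for UCON41. The limit in cortex tends to leave out families weighted to EVs, so the median and the upper end hold for these 39 alone. Of the families that passed in EVs alone, UCON5 had a ratio of 4.89, UCON31 of 7.33 and MER123 of 0.553, all on few cortex reads. The tissues' tables were normalised separately and the libraries were made by different protocols, so no test was made between tissues, and tissue and protocol cannot be told apart.

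UCON14 (DNA?) was the family most weighted to cortex by share of repeat reads. It took 0.00114% of repeat reads in EVs, with a range of 0.000786% to 0.00333%, against 0.0159% in cortex, with a range of 0.00782% to 0.0334%. The ranges did not overlap. EV libraries likewise lay wholly below cortex libraries for UCON70, Eulor12, Eulor2B, UCON88, EUTREP2, UCON4, MER131, Helitron2Na_Mam and UCON6, which with UCON14 makes 10 of the 39, or 25.6%. The same held for 20.1% of the 661 other repeat families and for 83.7% of the 19441 features that passed in both tissues. The direction depends on the denominator. As shares of all reads, of which repeats hold far more in EVs, all 39 families had a higher mean in EVs, by 1.07 times for UCON14, 3.92 times for EUTREP2 and 8.06 times for UCON6. By that share 35 of the 39 lay wholly above cortex, against 98.0% of other repeat families and 10.1% of all features. Wholly below cortex lay 0 of the 39, against 52.9% of all features. EUTREP2 was at rank 5 in EVs, with 0.0113% of repeat reads, and at rank 2 in cortex, with 0.0426%. Among the 39, UCON41 and Helitron1Nb_Mam were the 2 families with every EV library above every cortex library by share of repeat reads. The same held for 19.2% of other repeat families and 0.725% of all features. UCON41 took 0.00922% in EVs and 0.00260% in cortex, and Helitron1Nb_Mam took 0.00463% in EVs and 0.00259% in cortex. The 39 had to pass in cortex, which leaves out families scarce there and limits how many can lie above cortex. UCON5 and UCON31, among others left out, also had every EV library above every cortex library, on few cortex reads. The remaining 27 families overlapped between the tissues, among them EUTREP14, Eutr5 and UCON1, whose EV share was 3.18, 2.82 and 2.24 times the cortex share. MamRep605 had nearly the same weight in both, with a ratio of 1.09.

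**Figure D2:**
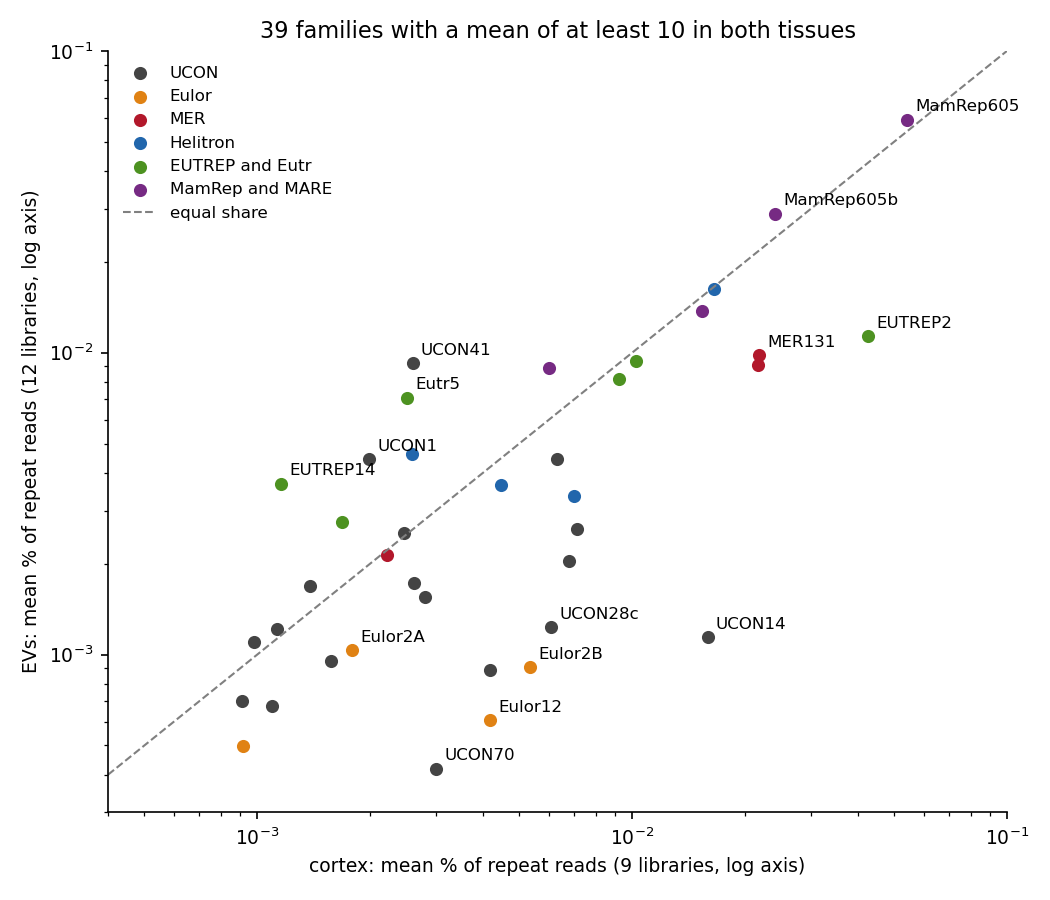
Mean percentage of repeat reads of each of the 39 families in 12 EV libraries (vertical, log axis) against 9 cortex libraries (horizontal, log axis), coloured by name group, with a dashed line of equal share. UCON14, UCON70, Eulor12 and Eulor2B lie far below the line, with EV to cortex ratios of 0.0719 to 0.170, and UCON41 and EUTREP14 lie above it, with ratios of 3.55 and 3.18.

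The 43 families that passed in EVs alone were scarce in cortex. Their EV means ran from 13.1 normalised counts for Eulor5A to 1059 for UCON5, while in cortex they had 0 to 82 reads over all 9 libraries together. Eulor5A, Eulor5B, Eulor6B, Eulor6C, UCON58 and UCON68 had no read in any cortex library. A count of 0 allows up to 3 reads per library, which was 4.63 normalised counts in the shallowest cortex library, CCD cortex_354, and 2.20 in the deepest, young cortex_377. Absence from cortex is therefore not shown by these counts.

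Levels of a family varied much more between cortex libraries of a group than counting alone gives. The within-group coefficient of variation in cortex had a median of 38.6%, from 6.55% for MamRep605b to 72.8% for UCON76, where counting error had a median of 14.1%. In EVs the median was 23.2%, from 7.42% for UCON41 to 70.7% for UCON68, where counting error had a median of 6.37%. The median family had 246 reads per EV library and 50 per cortex library, so EV values are the more precise. A range of over 10-fold between libraries, or a library at 0, was seen in 6 of 39 families in cortex and in 3 of 82 in EVs, while 8 families in cortex and 30 in EVs stayed within 2-fold.

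Single libraries took many of the extremes. In cortex, CCD cortex_163 was highest for 13 of 39 families and young cortex_377 lowest for 7. In EVs, old EV_253 was highest for 29 of 82 families and young EV_270 for 17, while CCD EV_523 was lowest for 28 and young EV_502 for 20. The same 4 EV libraries stood at the ends of the overall repeat share, with 83.6% of reads in old EV_253 and 84.2% in young EV_270, and with 74.9% in CCD EV_523 and 75.7% in young EV_502. CCD EV_523 was also the EV library of highest meningeal level. Without it 0 of 82 families were called in each comparison, and the families' median log2 fold change was -0.17 for CCD against old EVs and 0.080 for CCD against young EVs. The part of the repeat share and of that level in the families' levels was not tested.

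CCD cortex was compared with old cortex. Ages were not used here, so dysfunction and any difference in age between these groups cannot be told apart. MER131 was higher and Eulor2A lower in CCD cortex by the smallest p-values among the 39, and neither passed the adjusted threshold. With limma on log2 of the normalised count plus 1 and Benjamini-Hochberg adjustment over all 19710 features, 0 of 39 families and 0% of all features were called at an adjusted p under 0.05. At an unadjusted p under 0.05, limma had 2 families higher and 1 lower, against 4.45% of all features higher and 10.6% lower. edgeR and DESeq2 also called 0 families. At an unadjusted p under 0.05 edgeR had 4 higher and 1 lower and DESeq2 had 6 higher and 1 lower. With both tools UCON20, which passed the limit on the mean through CCD and is a description only, was among those higher. Shares of all features at that p are not given here for edgeR and DESeq2. Their counts of families at that p, here and in the later comparisons, are therefore descriptions without a background.

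Eulor2A (DNA?) had 1.26, 0 and 6.09 normalised counts in CCD cortex, against 26.7, 14.3 and 36.8 in old cortex and 23.8, 24.2 and 46.2 in young cortex. The CCD values came from 1, 0 and 5 reads, all below every library of both other groups, which overlapped each other. The log2 fold change was -3.32 ± 0.81 (SE) for CCD against old, with an unadjusted p of 0.00179 and a limma adjusted p of 0.286. Its relative Eulor2B had 117, 102 and 42.7 normalised counts in CCD cortex, against 50.1, 42.8 and 62.5 in old cortex and 99.3, 55.4 and 47.0 in young cortex, and these groups overlapped. How reads were divided between near-identical families is not given in the sources used here, so the split between Eulor2A, Eulor2B and Eulor2C is uncertain. Their sum, taken after the values were seen, was 125, 102 and 57.3 in CCD cortex, against 81.9, 57.1 and 104 in old cortex and 123, 84.7 and 93.2 in young cortex. The sum overlapped between all 3 groups. Most of it was Eulor2B, which averaged 68.7 over the cortex libraries, against 19.9 for Eulor2A and 3.24 for Eulor2C. A loss of Eulor2A alone could thus leave the sums overlapping, and no conclusion is drawn from them. In EVs, Eulor2A averaged 274 ± 55.5 in CCD, 338 ± 70.3 in old and 263.98 ± 19.0 in young libraries (SD, n = 4 each), and the groups overlapped there too.

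MER131 (DNA?) had 629.8, 483 and 271 normalised counts in CCD cortex, against 187, 199.9 and 233 in old cortex and 250.2, 218 and 138 in young cortex. Every CCD library lay above every library of the other groups, although CCD cortex_358 came close to them. Against old cortex the log2 fold change was 1.08 ± 0.34, with an unadjusted p of 0.00991 and a limma adjusted p of 0.286. MER124, of the same class, had 320.0, 171 and 288 in CCD cortex, against 255, 271 and 329.8 in old cortex, and the groups overlapped.

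UCON41 had 83.1, 30.8 and 53.6 normalised counts in CCD cortex, against 20.05, 16.2 and 31.7 in old cortex and 21.7, 20.2 and 30.1 in young cortex. The lowest CCD library fell within the old range, and the log2 fold change against old was 1.21 ± 0.51. UCON20, which passed the limit of 10 through CCD, had 15.1, 17.0 and 32.9 in CCD cortex, against 10.02, 5.71 and 2.57 in old cortex, with a log2 fold change of 1.74 ± 0.79. EUTREP2, the most abundant of its group, had 621, 657 and 579 in CCD cortex, against 507, 565 and 565 in old cortex and 439, 524 and 333 in young cortex. Its CCD libraries lay above all others by a narrow margin. UCON28c had 234, 153 and 60.9 in CCD cortex, against 39.3, 64.7 and 23.1 in old cortex and 87.9, 99.8 and 1.47 in young cortex, and CCD cortex_358 lay inside both ranges. MamRep605b had the smallest spread of the 39, at 324, 289.9 and 327 in CCD cortex, against 285, 303 and 283 in old cortex and 261, 268 and 305 in young cortex. On the lower side of this comparison, UCON66, which passed through the old libraries, had 8.82, 10.8 and 7.31 in CCD cortex, against 30.1, 13.3 and 21.4 in old cortex, a log2 fold change of -1.12 ± 0.61. UCON84 had 0, 17.0 and 17.1 in CCD cortex, against 14.2, 19.0 and 16.3 in old cortex, so its log2 fold change of -1.34 ± 1.03 came from CCD cortex_163 alone and was 0.0504 without it. The limma adjusted p was 0.315 for UCON41 and 0.525 for UCON84.

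**Figure D3:**
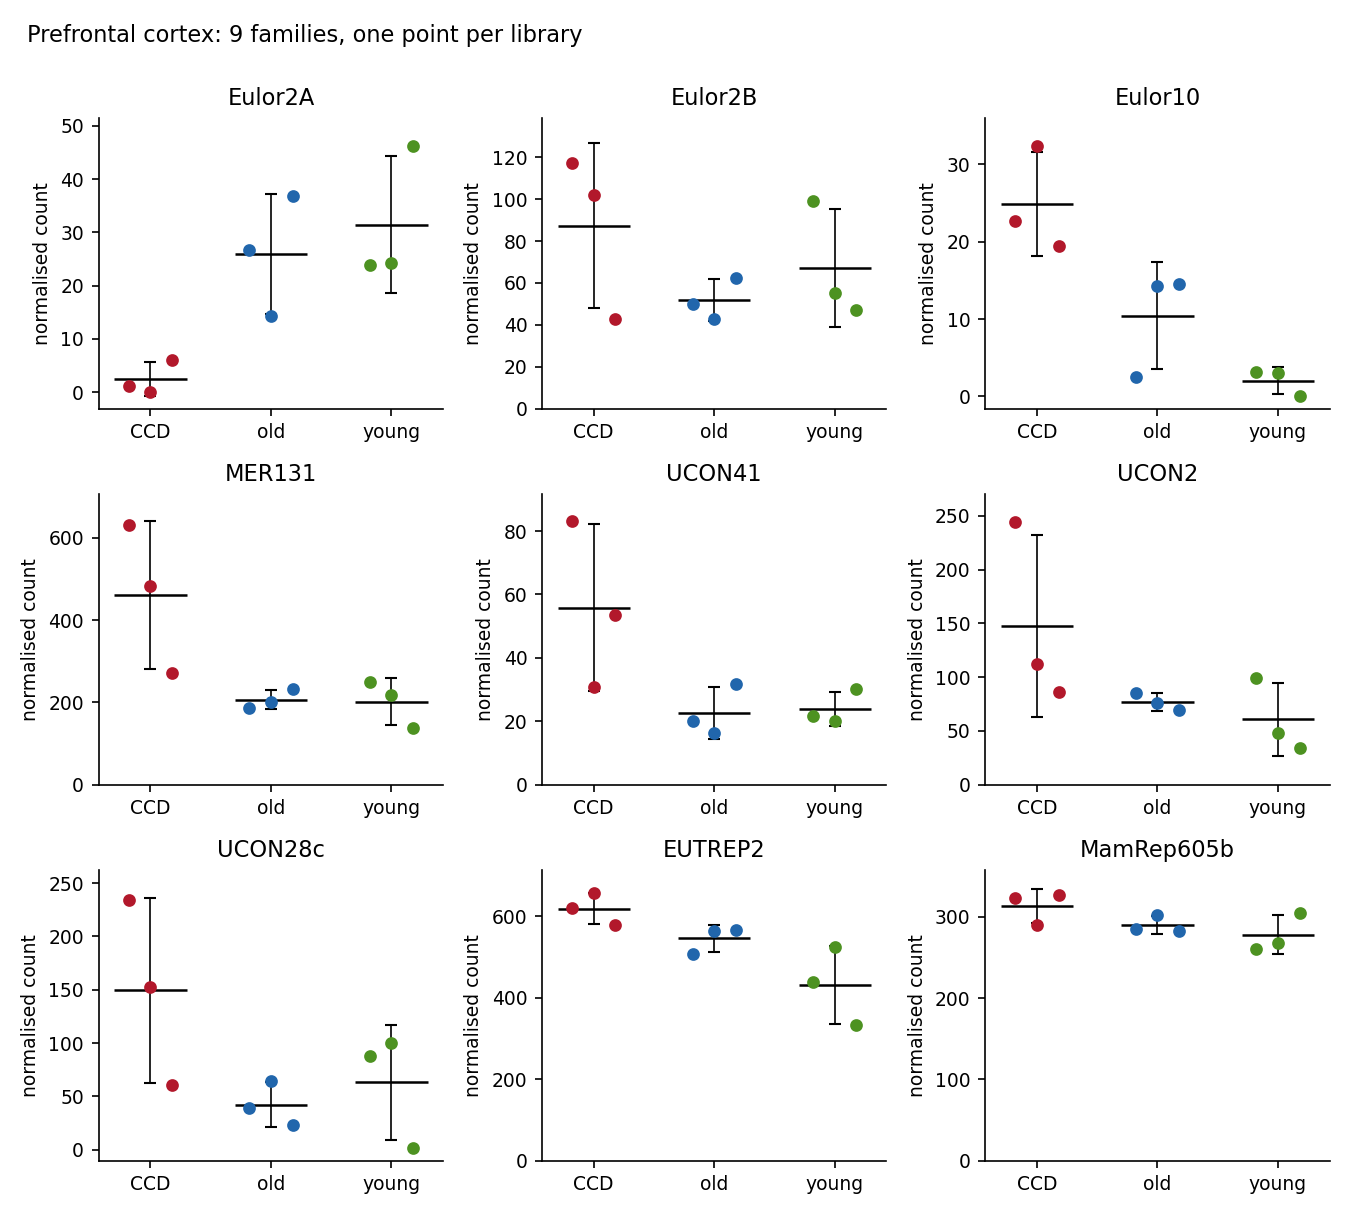
Normalised counts of 9 families in prefrontal cortex, with a point for each library, a line for the mean and bars for the SD (n = 3 per group). Eulor2A is at 0 to 6.09 in CCD and at 14.3 or more in the other groups, MER131 is at 271 or more in CCD and at 250.2 or less elsewhere, and MamRep605b stays between 261 and 327 throughout.

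Counted over all 39 families, every CCD library lay above every old library for 8, namely EUTREP2, Eulor10, Helitron1Na_Mam, MER131, UCON20, UCON2, UCON4 and UCON6, and below for 3, namely Eulor2A, UCON66 and UCON88. These are 20.5% and 7.69% of the families. Without Eulor10, UCON20 and UCON66, which passed the limit through a single group, they are 6 and 2 of 36, or 16.7% and 5.56%. Over all features 12.5% lay wholly above and 21.9% wholly below, and over the 661 other repeat families 31.0% and 1.66%, so the families' shares fell between the other two. Log2 fold changes were positive for 24 of the 39 families and negative for 15, with a median of 0.15, where other repeat families had a median of 0.34 and all features one of -0.079. When libraries were scaled to repeat reads the split became 13 positive and 26 negative, with a median of -0.31, while the median of all features became -0.53. Relative to the median of all features the families' median was thus 0.23 in the first scaling and 0.22 in the second. Without Eulor10, UCON20 and UCON66 the first scaling had 22 positive and 14 negative families, with a median of 0.13.

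Other measures also differed between CCD and old cortex libraries. All 3 astrocyte markers (GFAP, AQP4 and SLC1A2) were found, none at 0, and summed to 70294 to 76078 normalised counts in CCD and 47072 to 64740 in old cortex. The 5 neuronal markers summed to 101765 to 117086 in CCD and 134397 to 135885 in old cortex, while 2 of 3 oligodendrocyte markers were found and summed to 231217 to 603567 in CCD and 181064 to 255021 in old cortex. The astrocyte and neuronal sums did not overlap between the groups, and the oligodendrocyte sums did. The part of these levels and of read depth in the families' differences was not tested. Without the 3 libraries of high meningeal level, which left 2 CCD libraries, 3 old libraries and 1 young library, 3 of 39 families were called against 15.8% of all features. Eulor2A was lower by a log2 fold change of -4.07 ± 0.81 (limma adjusted p = 0.0153), MER131 higher by 1.42 ± 0.23 (adjusted p = 0.00827) and UCON28c higher by 2.25 ± 0.46 (adjusted p = 0.0170). In the same setting 0 of 39 families were called for CCD against young cortex, against 3.31% of all features, and 0 for old against young cortex, against 3.17%. The lone young library is there assumed to vary like the other groups, and the setting was chosen after the data were seen. It also left out CCD cortex_358, the CCD library nearest to the old libraries for Eulor2A, MER131 and UCON28c, with 6.09, 271 and 60.9 normalised counts. Leaving out CCD cortex_358 alone gave the same log2 fold changes against old cortex, -4.07 for Eulor2A and 1.42 for MER131.

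CCD cortex was next compared with young cortex, a comparison that shares its CCD libraries with the previous one. limma again called 0 of 39 families and 0% of all features. At an unadjusted p under 0.05 it had 5 families higher, 4 without Eulor10, and 1 lower, against 4.55% of all features higher and 8.52% lower. edgeR called 0, and at an unadjusted p under 0.05 it had 6 higher, Eulor10 among them, and 1 lower. DESeq2 called 1 of 39 families, Eulor2A, with an adjusted p of 0.0256 among 216 called features.

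Eulor10 (DNA?) had 22.7, 32.4 and 19.5 normalised counts in CCD cortex, against 2.51, 14.3 and 14.6 in old cortex and 3.10, 3.02 and 0 in young cortex. The CCD libraries lay above all others, and the old and young groups overlapped. The log2 fold change for CCD against young was 3.31 ± 0.89, given as a description since the family passed the limit through CCD, and it rested on 3, 3 and 0 reads in the young libraries. In EVs, where Eulor10 had more reads, it averaged 130.3 ± 33.3 in CCD, 150.3 ± 28.8 in old and 139.9 ± 32.5 in young libraries, and the groups overlapped.

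Against young cortex the log2 fold change of MER131 was 1.15 ± 0.34 and that of Eulor2A was -3.61 ± 0.81, both with a limma adjusted p of 0.356. UCON2 (DNA?) had 244, 113 and 86.5 normalised counts in CCD cortex, against 99.3, 48.4 and 34.5 in young cortex, which overlapped, and its log2 fold change was 1.27 ± 0.48, or 0.83 without CCD cortex_163. Eutr5 (LTR?) had 12.6, 18.5 and 31.7 in CCD cortex, against 64.1, 22.2 and 30.8 in young cortex, with a log2 fold change of -0.82 ± 0.56 that was -0.40 without young cortex_270. UCON48 followed on the lower side with -0.73 ± 0.59, which was -0.16 without CCD cortex_354. The CCD libraries lay wholly above the young libraries for 6 families, 5 without Eulor10, namely EUTREP2, Eulor10, Helitron2Na_Mam, MER131, UCON41 and UCON6, against 5.73% of all features and 18.2% of other repeat families. They lay wholly below for Eulor2A, against 7.95% of all features. Positive log2 fold changes were found for 28 of 39 families, with a median of all 39 of 0.17, where other repeat families had a median of 0.30 and all features one of -0.076. Scaling to repeat reads gave 14 positive and 25 negative families with a median of -0.23, while the median of all features became -0.47. Before that scaling, 26 families were positive and 10 negative without Eulor10, UCON20 and UCON66, with a median of 0.17.

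Old cortex was compared with young cortex, the groups not labelled CCD. limma called 0 of 39 families and 0% of features, and 0 families had an unadjusted p under 0.05 in either direction, against 2.84% of all features higher and 3.83% lower. edgeR and DESeq2 each called 0 families, and at an unadjusted p under 0.05 each had 1 higher and 0 lower. With both tools this was Eulor10, which passed the limit of 10 through CCD and is given as a description only. Helitron2Na_Mam (RC?) had 126, 78.1 and 85.7 normalised counts in old cortex, against 52.7, 56.4 and 62.4 in young cortex, which did not overlap, with a log2 fold change of 0.72 ± 0.36. It also had 145, 72.5 and 109.7 in CCD cortex, above the young libraries. Eulor10 had the largest positive fold change, 1.89 ± 0.89, with overlapping groups, and it was 1.21 without young cortex_377. On the lower side, UCON28a had 10.02, 17.1 and 30.8 in old cortex, against 69.3, 40.3 and 27.9 in young cortex, a log2 fold change of -1.24 ± 0.60. The sum of UCON28a, UCON28b and UCON28c, taken after the values were seen, averaged 141 ± 26.1 in old cortex and 191 ± 57.0 in young cortex (SD, n = 3 each), and 246 ± 92.4 in CCD cortex. Helitron3Na_Mam, with -0.46 ± 0.36, and UCON4, with -0.45 ± 0.38, were within about 1 to 2 standard errors of 0. They were -0.27 for Helitron3Na_Mam without old cortex_250 and -0.23 for UCON4 without old cortex_253. Old libraries lay wholly above young libraries for Helitron2Na_Mam, UCON66 (which passed the limit of 10 through the old libraries) and UCON84, against 6.45% of all features, and wholly below for 0 families, against 5.52%. Fold changes were positive for 23 families and negative for 16, with a median of 0.075 that lay 0.045 above that of all features. Without Eulor10, UCON20 and UCON66, 21 were positive and 15 negative, with a median of 0.073.

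In EVs the families were counted with more reads, and in each comparison their log2 fold changes spanned a narrower range than in cortex. The sets of families differ, and the families' medians were not smaller in size in EVs for CCD against old or old against young. CCD EVs were first compared with old EVs. limma called 0 of 82 families and 0% of all 32539 features. At an unadjusted p under 0.05 it had 0 families higher and 4 lower, against 0.756% of all features higher and 5.35% lower. edgeR and DESeq2 called 0 families too, and at an unadjusted p under 0.05 edgeR had 3 higher and 0 lower and DESeq2 had 5 higher and 0 lower. None of the 4 families lower with limma was among them.

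Helitron1Na_Mam (RC) had 1137, 916, 802 and 774 normalised counts in CCD EVs, against 1071, 1165, 1256 and 1284 in old EVs and 1223, 901, 1015 and 800.2 in young EVs. Only CCD EV_163 reached the old range. The log2 fold change against old was -0.41 ± 0.18, with an unadjusted p of 0.0374 and a limma adjusted p of 0.766, but it was -0.14 relative to the median of all features, which was itself -0.27. UCON28c had 371, 317, 252.7 and 257 in CCD EVs, against 335, 383, 469.9 and 422 in old EVs, with a log2 fold change of -0.43 ± 0.19. UCON24 had 72.5, 58.4, 45.2 and 107 in CCD EVs, against 82.2, 94.9, 121 and 141 in old EVs, with one of -0.66 ± 0.30. Each pair of groups overlapped.

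The families with the smallest p on the higher side included UCON28b, a relative of UCON28c. UCON28b had 1349.6, 1066, 1173 and 1479 normalised counts in CCD EVs, against 1009, 841, 918 and 1144 in old EVs and 848, 1634, 1566 and 1874 in young EVs. Its log2 fold change against old was 0.37 ± 0.23. UCON18 showed a similar spread, with 550.4, 422, 247 and 408 in CCD EVs, 309, 189, 266 and 292 in old EVs and 198, 492, 475 and 862 in young EVs. In both families young EV_270 lay far below the other 3 young libraries. UCON18 had a log2 fold change of 0.59 ± 0.37 for CCD against old and UCON25 of 0.29 ± 0.18, and all 3 had a limma adjusted p of 0.766.

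CCD EV libraries lay wholly above old EV libraries for 0 of 82 families, against 0.9% of all features. They lay wholly below for 6, namely Eutr16, UCON28a, UCON4, UCON51, UCON67 and UCON87, against 5.08% of all features. Of the 82 log2 fold changes 15 were positive and 67 negative, with a median of -0.25, close to -0.27 for all features and -0.21 for the other 729 repeat families. With edgeR, which scales by trimmed means, 47 were positive and 35 negative and the median was 0.02. In the same libraries the 5 vesicle markers, none at 0, lay lower in CCD than in old EVs, as given above, and all 3 microglial markers (CSF1R, C1QA and P2RY12), none at 0, summed to 298 to 347 in CCD and 392 to 458 in old EVs. Their part in the families' levels was not tested.

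UCON4 lay on opposite sides in the tissues. It had 162, 84.8 and 85.3 normalised counts in CCD cortex, against 71.8, 45.7 and 74.5 in old cortex, and 559, 566, 552 and 444 in CCD EVs, against 606, 722, 693 and 587 in old EVs. The groups did not overlap in either tissue. The log2 fold change for CCD against old was 0.75 in cortex and -0.30 in EVs. Relative to the median of all features it was 0.82 in cortex and -0.030 in EVs, so the EV value was near that of the table as a whole. The difference between the tissues was not tested.

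Old EVs were then compared with young EVs. limma called 0 of 82 families and 0% of features. At an unadjusted p under 0.05 it had 2 families higher and 1 lower, against 0.768% of all features higher and 0.492% lower. edgeR and DESeq2 each called 0, and at an unadjusted p under 0.05 each had 2 higher and 3 lower. UCON57 had 75.7, 104, 69.6 and 84.0 normalised counts in old EVs, against 67.5, 48.8, 43.2 and 32.6 in young EVs. The groups did not overlap, by a margin of 69.6 against 67.5, and the log2 fold change was 0.81 ± 0.29, with an unadjusted p of 0.0156 and a limma adjusted p of 0.9999. UCON56, with 0.96 ± 0.39, and UCON24, with 0.65 ± 0.30, followed on the higher side. UCON28b, with -0.55 ± 0.23, UCON18, with -0.78 ± 0.37, and UCON25, with -0.35 ± 0.18, had the smallest p on the lower side. UCON18 was at -0.47 without young EV_502.

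Old EV libraries lay wholly above young EV libraries for EUTREP4 and UCON57, against 0.529% of all features, and wholly below for 0 families, against 0.393%. EUTREP4 (DNA?, listed in the PiggyBac family) had 831, 959.8, 804 and 914 normalised counts in old EVs, against 696, 714, 774 and 599.7 in young EVs. Log2 fold changes were positive for 67 of 82 families and negative for 15, with a median of 0.22, where the other repeat families had a median of 0.15 and all features one of 0.092. This comparison and the previous one share the old EV libraries.

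CCD EVs were last compared with young EVs. limma called 0 of 82 families and 0% of features, and 0 families had an unadjusted p under 0.05 in either direction, against 0.144% of all features higher and 2.7% lower. edgeR and DESeq2 called 0 as well, and at an unadjusted p under 0.05 edgeR had 1 higher and 0 lower and DESeq2 had 3 higher and 0 lower. CCD libraries lay wholly above young libraries for UCON99, a Helitron, against 0.129% of all features, and wholly below for 0 families, against 2.52%. UCON99 had 154, 169.7, 167 and 162.7 normalised counts in CCD EVs, against 142, 148, 123 and 153 in young EVs. EUTREP6, with a log2 fold change of 1.01 ± 0.67 (0.53 without young EV_502 and 1.55 without young EV_270), UCON63, with 0.55 ± 0.38, and MARE9, with 0.32 ± 0.24, had the smallest p on the higher side. UCON22, with -0.64 ± 0.37, MER124, with -0.63 ± 0.37, and UCON93, with -0.50 ± 0.34, had the smallest on the lower side.

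UCON22 had 565 normalised counts in young EV_270, against 149 to 266 in the other young EVs, and its log2 fold change was -0.27 without that library. The MER124 difference also came largely from a single library. MER124 had 2087, 2183, 1684 and 1444 normalised counts in CCD EVs, against 2315, 1826, 1879.9 and 8086 in young EVs, and without young EV_502 its log2 fold change was -0.13. A single high library was also seen for UCON14, with 240.0, 262, 931 and 216 in CCD EVs, against 249.7, 339, 306 and 265 in old EVs and 308, 222, 277 and 238 in young EVs. UCON41 had the smallest within-group spread of the 82, with 2966, 2846, 2699 and 2521 in CCD EVs, against 2383, 2667, 2517 and 2387 in old EVs and 2839, 2449, 2274 and 2545 in young EVs. Over all 82 families, 36 had a positive and 46 a negative log2 fold change for CCD against young EVs, with a median of -0.034 against -0.16 for all features. The split depended on the scaling: edgeR and DESeq2 each had 69 positive and 13 negative, centring on the median feature gave 67 and 15, and quantile normalisation 61 and 21.

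**Figure D4:**
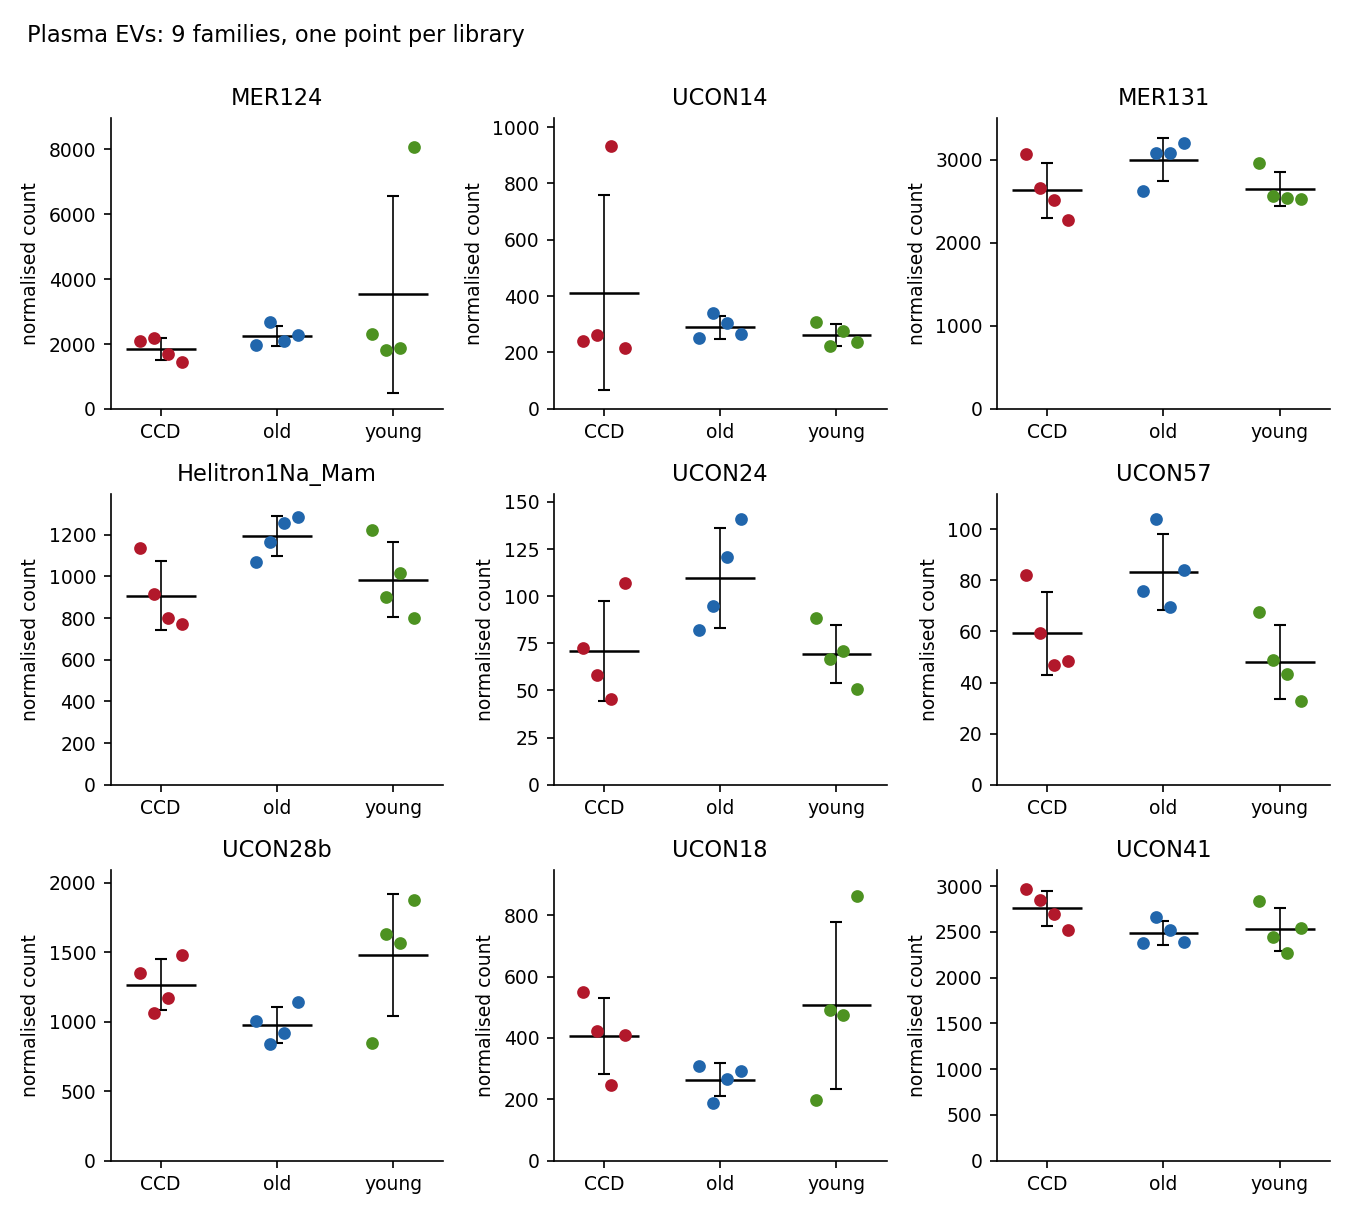
Normalised counts of 9 families in plasma EVs, with a point for each library, a line for the mean and bars for the SD (n = 4 per group). MER124 has a single young library at 8086 and UCON14 a single CCD library at 931, while UCON41 lies between 2274 and 2966 in all 12 libraries.

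**Figure D5:**
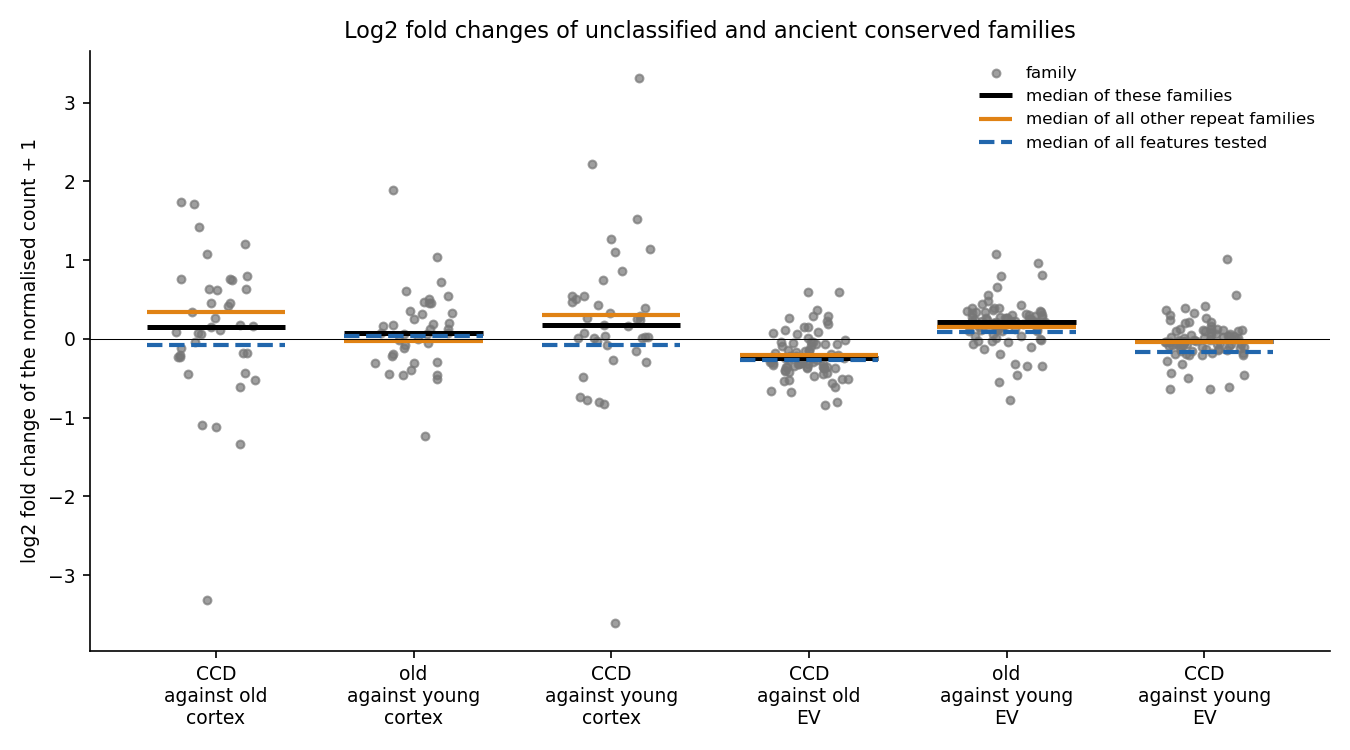
Log2 fold changes of the normalised count plus 1 for the 39 families in cortex and the 82 in EVs, with a point for each family and lines for the median of these families, of all other repeat families and of all features tested. The families' medians are 0.15, 0.075 and 0.17 in cortex and -0.25, 0.22 and -0.034 in EVs, from left to right, and Eulor2A lies at -3.32 and -3.61 in the CCD comparisons of cortex.

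By name group, the fold changes for CCD against old cortex were widest among Eulor and UCON families. In that comparison the 18 UCON families ran from -1.34 to 1.74 with a median log2 fold change of 0.21. The 4 Eulor families ran from -3.32 to 1.43 with a median of 0.70. The upper ends are UCON20 and Eulor10, which passed the limit on the mean through CCD and are descriptions only. Without them the upper ends were 1.71 for UCON28c and 0.76 for Eulor12. The medians include UCON20 and Eulor10, and UCON66, which passed through the old libraries. The 4 Helitron families stayed between -0.036 and 0.41, and the 4 MamRep families between -0.12 and 0.45. Fold changes on the scale of log2 of the count plus 1 understate those of the scarcest families. For CCD against old EVs the medians of the groups lay close together, at -0.25 for 7 EUTREP and Eutr families, -0.29 for 9 Eulor, -0.31 for 5 Helitron, -0.30 for 4 MER and -0.24 for 51 UCON families, and at -0.12 for the 6 MamRep and MARE families.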

How the data were processed

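Each tissue has a table deposited by the authors that lists a signal for every gene and repeat family, called normalised counts in its sheet. Per the submitters' processing notes STAR and DESeq2 were used. Not given in the sources used here are versions, genome build, repeat annotation and counting tool. Every library of a table has the same total. Dividing each value by its library's step gave whole reads for 100% of values (tolerance 0.01), which says little for young cortex_353, whose step is near 1. No 2 libraries of a group agreed within sampling noise.

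Features with a mean of at least 10 were tested as log2(value + 1) in R 4.3.3 with limma 3.58.1 (a model of the 3 groups, variances moderated along a trend), adjusted by Benjamini-Hochberg over all features with a threshold of 0.05. Recovered reads were tested with edgeR 4.0.16 and DESeq2 1.42.0. The steps were tested on simulated data. The families named are, per comparison, the 3 of smallest p in each direction where fewer than 3 pass, the most abundant of each name group and those nearest the limit of 10. Eulor2B, Eulor10 in EVs, EUTREP4, UCON99, UCON6, UCON88 and others named for groups that did not overlap, for tissue ratios or as relatives were chosen after their values were seen. The families, marker lists and tests were chosen with earlier results of these data known. Alternatives were other pseudocounts, filters, scalings, tools, samples and each library left out.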

Additional observations from a re-analysis of the deposited data

Results flagged for a closer look

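Within groups of 4 EV libraries, 117 sets of values (36 families and 3 library measures) were searched for a library far from the others by Dixon's criterion, which chance meets in about 1 of 20 sets, and 10 met it. MER124 was at 8086 normalised counts in young EV_502, against 1826 to 2315 in the other 3 young libraries. UCON14 was at 931 in CCD EV_358, against 216 to 262. MARE9 was at 90.2 in young EV_502, against 58.4 to 59.1. MER131 was at 2959 in young EV_270, against 2531 to 2564. UCON1 was at 1716 in old EV_253, against 1261 to 1321, and UCON22 at 364 in old EV_519, against 219 to 244. Low libraries were EUTREP6 at 15.7 in CCD EV_523, against 44.1 to 49.7, UCON4 at 444 in CCD EV_523, against 552 to 566, and Helitron2Na_Mam at 947 in old EV_250, against 1118 to 1131. The families' share of repeat reads was 0.302% in young EV_270, against 0.258% to 0.262% in the other young EV libraries. UCON4 was higher in every CCD than every old cortex library, with a log2 fold change of 0.75, and lower in every CCD than every old EV library, with one of -0.30. Relative to the median of all features these were 0.82 and -0.030, so the EV value was near that of the table as a whole, and the difference between tissues was not tested.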

How the results depend on the processing

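No paired analysis was possible because groups compared within a tissue share no library number. Of 36 results for named families, 35 kept their direction in every alternative run, and UCON84 for CCD against old cortex ran from -2.04 to 0.0504 as libraries were left out, turning positive without CCD cortex_163. Leaving out 1 library moved 11 of the 36 by over 1.5 times. The count of called families was 0 in each comparison, except 3 for CCD against old cortex without the 3 libraries of high meningeal level (chosen after the data were seen) and 1 for CCD against young cortex with DESeq2. Over all features, limma on the compared groups alone called 518 higher and 1291 lower for CCD against old cortex, with 0 of the families, where the fit of 3 groups called 0. The families' median log2 fold change moved for CCD against old cortex to -0.31 scaled to repeat reads, 0.25 with edgeR and 0.26 with DESeq2, and for CCD against young cortex to -0.23, 0.32 and 0.33 in the same settings. It moved to 0.19 for old against young cortex with quantile normalisation. For CCD against old EVs it moved to 0.0214 when centred on the median feature, 0.0248 with edgeR and 0.0118 with DESeq2, and for CCD against young EVs to 0.16 with edgeR. The cause was not tested. Leaving out each library in turn gave medians of 0.10 to 0.23, 0.062 to 0.14 and 0.14 to 0.30 for CCD against old, old against young and CCD against young cortex. In EVs they were -0.33 to -0.17, 0.12 to 0.33 and -0.12 to 0.080 in the same order. In each case 0 families were called. Cortex depth limits the scarce families, with a median counting error of 14.1%.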
